A study of Mus musculus with 10 samples.

Results

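The clustered protocadherins are cell surface proteins of the cadherin superfamily, encoded by the tandem alpha (Pcdha), beta (Pcdhb) and gamma (Pcdhg) gene clusters. In neurons each cell uses a small, partly random set of them, chosen by CTCF, cohesin and DNA methylation at alternative promoters, and the resulting combinations act in self-recognition of neurites, dendrite spacing and neuronal survival. Each alpha or gamma transcript joins its own large first exon to constant exons at the end of its cluster, so that all members of a cluster share the cytoplasmic tail and the 3′ UTR. Each beta gene is a single large exon with its own 3′ UTR and no constant exons. The members were chosen by name, as the protein-coding genes of chromosome 18 that belong to the Pcdha, Pcdhb or Pcdhg families. This choice set no threshold on a measured value, but the deposited matrix is itself labelled as filtered. Whether genes low in WT have a row in it only through their FLAG values was not tested. The members number 55 of the 15899 genes of the matrix, 14 alpha, 20 beta and 21 gamma, and all of them were tested. The gamma members comprise 12 of type A, 6 of type B and 3 of type C, and with Pcdhac1 and Pcdhac2 the C-type genes number 5. The family was proposed for description with results of the same FLAG against WT comparison already known, so the counts and p-values given for it describe that comparison and are not independent evidence about the family.

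RNA bound to the RNA-binding protein MEX3A was collected by RNA immunoprecipitation (RIP) with an anti-FLAG antibody. The FLAG cultures were neurospheres from the subependymal zone of 10-week-old Mex3aFLAG/FLAG knock-in mice, in which a 3X-FLAG tag had been added at the end of the endogenous Mex3a gene, and the WT cultures came from untagged Mex3a+/+ mice and give the background of the antibody and beads. All mice were C57BL/6J, and all cultures had been expanded with EGF and bFGF, so they hold mixed neural stem and progenitor cells and no labelled neurons. IP followed formaldehyde crosslinking for 2 FLAG and 2 WT libraries, whereas 3 FLAG and 3 WT libraries came from native IP without crosslinking. Input RNA was not analysed here, so a higher value in FLAG cannot be told apart from more of the transcript in the FLAG cultures, nor can fewer cells of a type be told apart from less RNA per cell.

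The values are the normalised log2 values of the deposited matrix, which has nearly the same distribution in every library. The depth of the libraries is therefore unknown. At the lowest value of a library, 329 and 178 genes were tied in FLAG native replicates 1 and 3, against 1 to 3 in the other 8. Whether these 2 had fewer reads is not known. Mex3a itself lay between 3.92 and 6.10 in the 5 FLAG libraries and between 2.75 and 3.52 in the 5 WT libraries, highest in FLAG native replicates 1 and 3, with no overlap. Its log2 fold change was 1.73 ± 0.37 (SE) at an adjusted p of 0.0789 in limma, which missed the threshold. All 11 markers of neural stem and progenitor cells were in the matrix, and none of them was called, beside 7 of 8 neuronal markers, 2 of 7 neuroblast, 2 of 6 oligodendrocyte, 3 of 6 microglial, 4 of 6 endothelial and 2 of 5 ependymal markers. Of the markers, the neuronal splicing regulator Rbfox3 was lower in FLAG by a log2 fold change of -1.31 (adjusted p = 0.0127) and the endothelial receptor Flt1 was higher by 2.23 (adjusted p = 0.0468). Other markers with large fold changes were Vim at 1.01 among the stem and progenitor markers, Sox11 at 1.58 and Cd24a at 1.24 among the neuroblast markers, Kdr at -1.09 among the endothelial and Gad1 at 0.65 among the neuronal markers, none of them called. Summed on the linear scale and taken to log2, the neuronal markers lay between 9.21 and 9.49 in FLAG and between 9.62 and 9.78 in WT, the neuroblast markers between 5.70 and 7.95 and between 4.72 and 5.68, and the endothelial markers between 3.93 and 4.72 and between 3.31 and 3.82, so that FLAG and WT were apart for these sums. The endothelial sum rested on Flt1, since Kdr, Tek at -0.74 and Pecam1 at -0.58 had fold changes below 0, and the neuronal sum mostly on Map2, which was not called (fold change -0.36, adjusted p = 0.0816 in limma), with 2 of the 7 neuronal markers above 0. The stem and progenitor markers overlapped, between 11.1 and 11.6 in FLAG and between 11.1 and 11.5 in WT, as did the other lists. Egfr was the largest term of that sum in every library, and 8 of the 11 stem and progenitor markers had fold changes above 0, with a median difference from the WT mean of the protocol of 0.50 and 0.43 in crosslinked FLAG and 1.17, -0.12 and 0.87 in native FLAG, against -0.06 to 0.22 in the WT libraries. The neuroblast markers Dcx and Tubb3 and the endothelial markers Cdh5 and Cldn5 had no row in the matrix. The part of other cell types in the values of the protocadherins was not tested.

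The alpha cluster spanned chr18:36930184-37187661, the beta cluster chr18:37294812-37524479 and the gamma cluster chr18:37661793-37841873 on GRCm38, all on the plus strand. For all 55 members the coordinates of the matrix were those of the GENCODE annotation. The alpha members were nested in each other with a shared end, and their spans ran from 44155 to 257478 bases. All 91 pairs of alpha members overlapped, as did all 210 pairs of gamma members, whose spans ran from 22361 to 180081 bases. The beta members, of 2801 to 8695 bases, lay side by side, and of their 190 pairs only Pcdhb21 and Pcdhb22 overlapped. All 20 beta members were a single exon, whereas exons made up a median of 2.61% of the span of an alpha member and 4.69% of that of a gamma member.

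**Figure D1:**
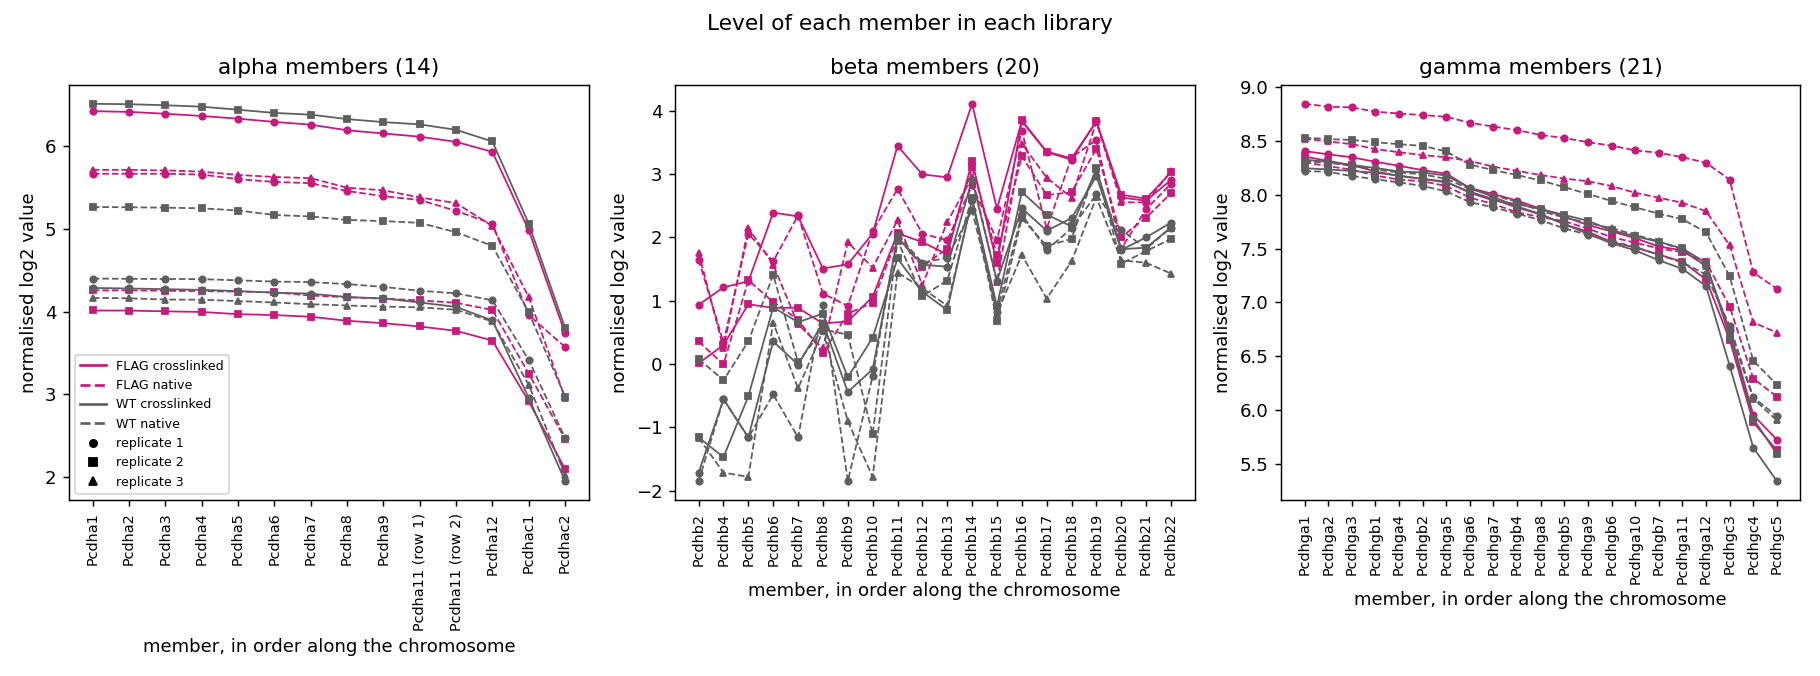
Normalised log2 value (vertical axis) of each alpha, beta and gamma member, placed in order along the chromosome (horizontal axis), with a line for each of the 10 libraries, coloured by genotype, dashed for native conditions and with a marker for the replicate number. The alpha and gamma lines fall from the first member to the last, whereas the beta lines rise and fall from gene to gene, and row 1 and row 2 mark the 2 rows named Pcdha11.

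This layout showed in the values. From each alpha member to the next along the chromosome, over all libraries, the value fell in 126 of 130 steps, was tied in 4 and rose in none. From each gamma member to the next it fell in 200 of 200 steps. For the beta members it fell in 90 steps, was tied in 2 and rose in 98 of 190. The values of a nested cluster thus had the order that arises when every member is given all reads within its span, introns and shared exons included, and the 14 alpha and 21 gamma values are not separate measurements of 14 and 21 transcripts. Differences between neighbouring members carry the information on single stretches, and the beta members could be read gene by gene, apart from Pcdhb21 and Pcdhb22, which overlap each other, and Pcdhb12, most of which overlaps the antisense gene Gm37446. Of the 2 rows named Pcdha11, that with the identifier ENSMUSG00000007440 lies where RefSeq places Pcdha10, and both are kept under the name of the matrix.

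The beta members had higher values in FLAG than in WT. The linear values of the 20 beta genes added up to 144 and 105 in the crosslinked FLAG libraries, against 61.5 and 60.2 in the crosslinked WT libraries. In native conditions the sums were 105, 84.1 and 103 in FLAG and 54.9, 57.7 and 43.7 in WT. Every FLAG library was thus above every WT library, and the ratio of the group means was 1.03 with crosslinking and 0.90 in native conditions on the log2 scale. When all libraries were fitted together with a term for the protocol, the median log2 fold change of the beta members was 0.92, against 0.27 for alpha, 0.16 for gamma and -0.03 for all genes. A log2 fold change over 0.58 was reached by 18 of 20 beta members, by no alpha or gamma member and by 10.3% of all genes.

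**Figure D2:**
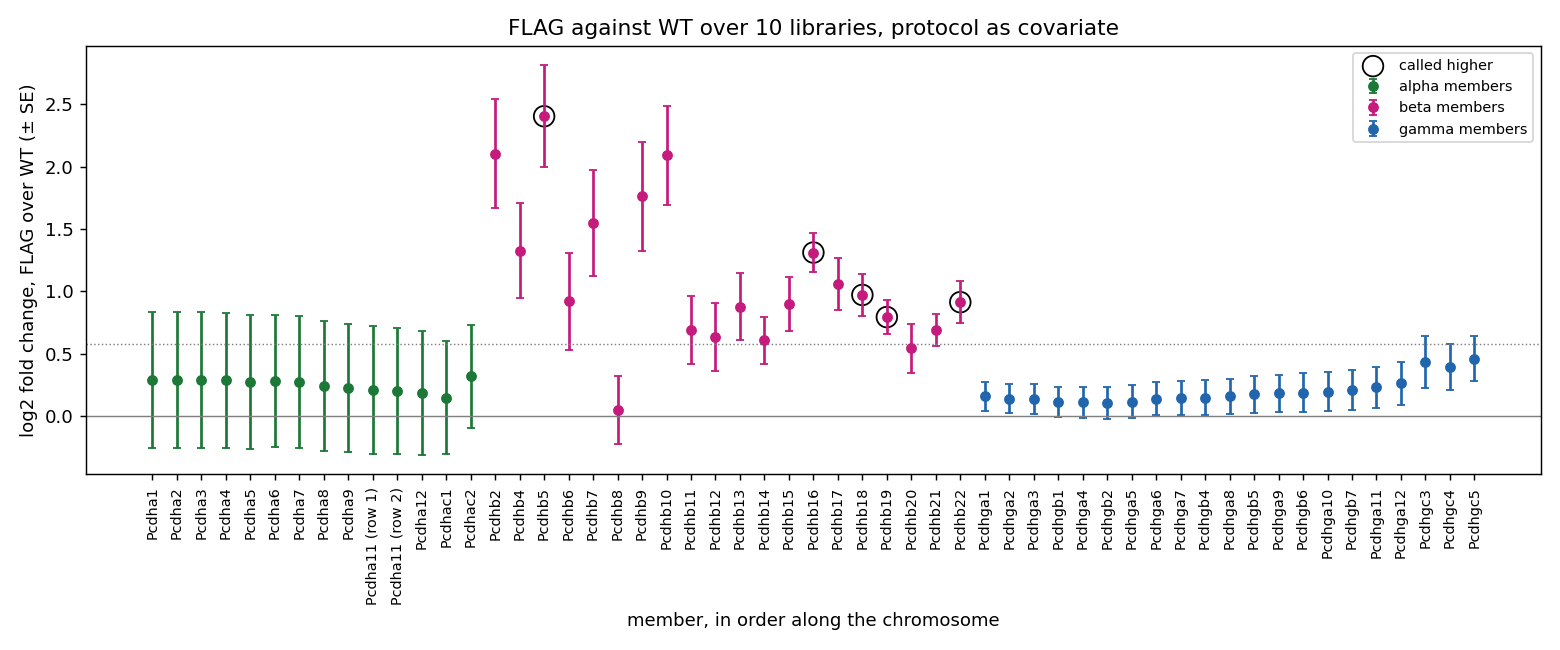
Log2 fold change of FLAG over WT over the 10 libraries (vertical axis, points with bars of 1 SE) for the 55 members in order along the chromosome (horizontal axis). The dotted line is at 0.58, and rings mark the 5 called members, all of them beta; the alpha points lie between 0.15 and 0.32 and the gamma points between 0.11 and 0.46.

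A gene was called at an adjusted p under 0.05 (limma, Benjamini-Hochberg over all genes) with a log2 fold change of over 0.58. Over all libraries 0.264% of genes were called higher and 0.233% lower, and the members called were 5 higher and 0 lower. The 5 were Pcdhb5, Pcdhb16, Pcdhb18, Pcdhb19 and Pcdhb22, of which only Pcdhb16 was still called in every fit that left out a library. All 20 beta members had a fold change above 0, as had 46.8% of all genes. Of the called members, Pcdhb5 and Pcdhb16 are in the list of bound genes that the study drew from these same libraries, which also holds Pcdhb10, so that list adds no independent evidence.

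Pcdhb16 had the smallest p of the family. It measured 3.83 and 3.84 in crosslinked FLAG against 2.46 and 2.71 in crosslinked WT. In native conditions it measured 3.68, 3.28 and 3.48 in FLAG and 2.36, 2.30 and 1.72 in WT. The lowest FLAG value was above the highest WT value of either protocol, and the log2 fold change was 1.31 ± 0.16 (SE; adjusted p = 0.0089 in limma).

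The other called members of this end of the cluster were Pcdhb18, Pcdhb19 and Pcdhb22. Pcdhb18 measured 3.22 and 3.25 in crosslinked FLAG against 2.30 and 2.17 in crosslinked WT, and 3.26, 2.71 and 2.63 in native FLAG against 2.14, 1.97 and 1.62 in native WT. Its log2 fold change was 0.97 ± 0.16 (adjusted p = 0.0374, limma). No FLAG library fell below a WT library. Pcdhb19, with the highest level of the beta genes per kb in WT, measured 3.83 and 3.83 in crosslinked FLAG against 2.97 and 3.07 in crosslinked WT, and 3.54, 3.40 and 3.82 in native FLAG against 2.68, 3.09 and 2.63 in native WT. The log2 fold change was 0.79 ± 0.14 (adjusted p = 0.0402, limma), again with no overlap between FLAG and WT. Pcdhb22, the last gene of the cluster, measured 2.90 and 3.03 in crosslinked FLAG against 2.23 and 2.15 in crosslinked WT, and 2.84, 2.69 and 3.04 in native FLAG against 2.15, 1.97 and 1.43 in native WT. FLAG and WT did not overlap, and the log2 fold change was 0.91 ± 0.17 (adjusted p = 0.0468, limma). Of the uncalled genes of this end, Pcdhb17, next to Pcdhb16, was at 1.06 ± 0.21 (adjusted p = 0.0580, limma), Pcdhb21, which overlaps the start of Pcdhb22, was at 0.69 ± 0.13 (adjusted p = 0.0512), and Pcdhb20 had overlapping native groups.

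**Figure D3:**
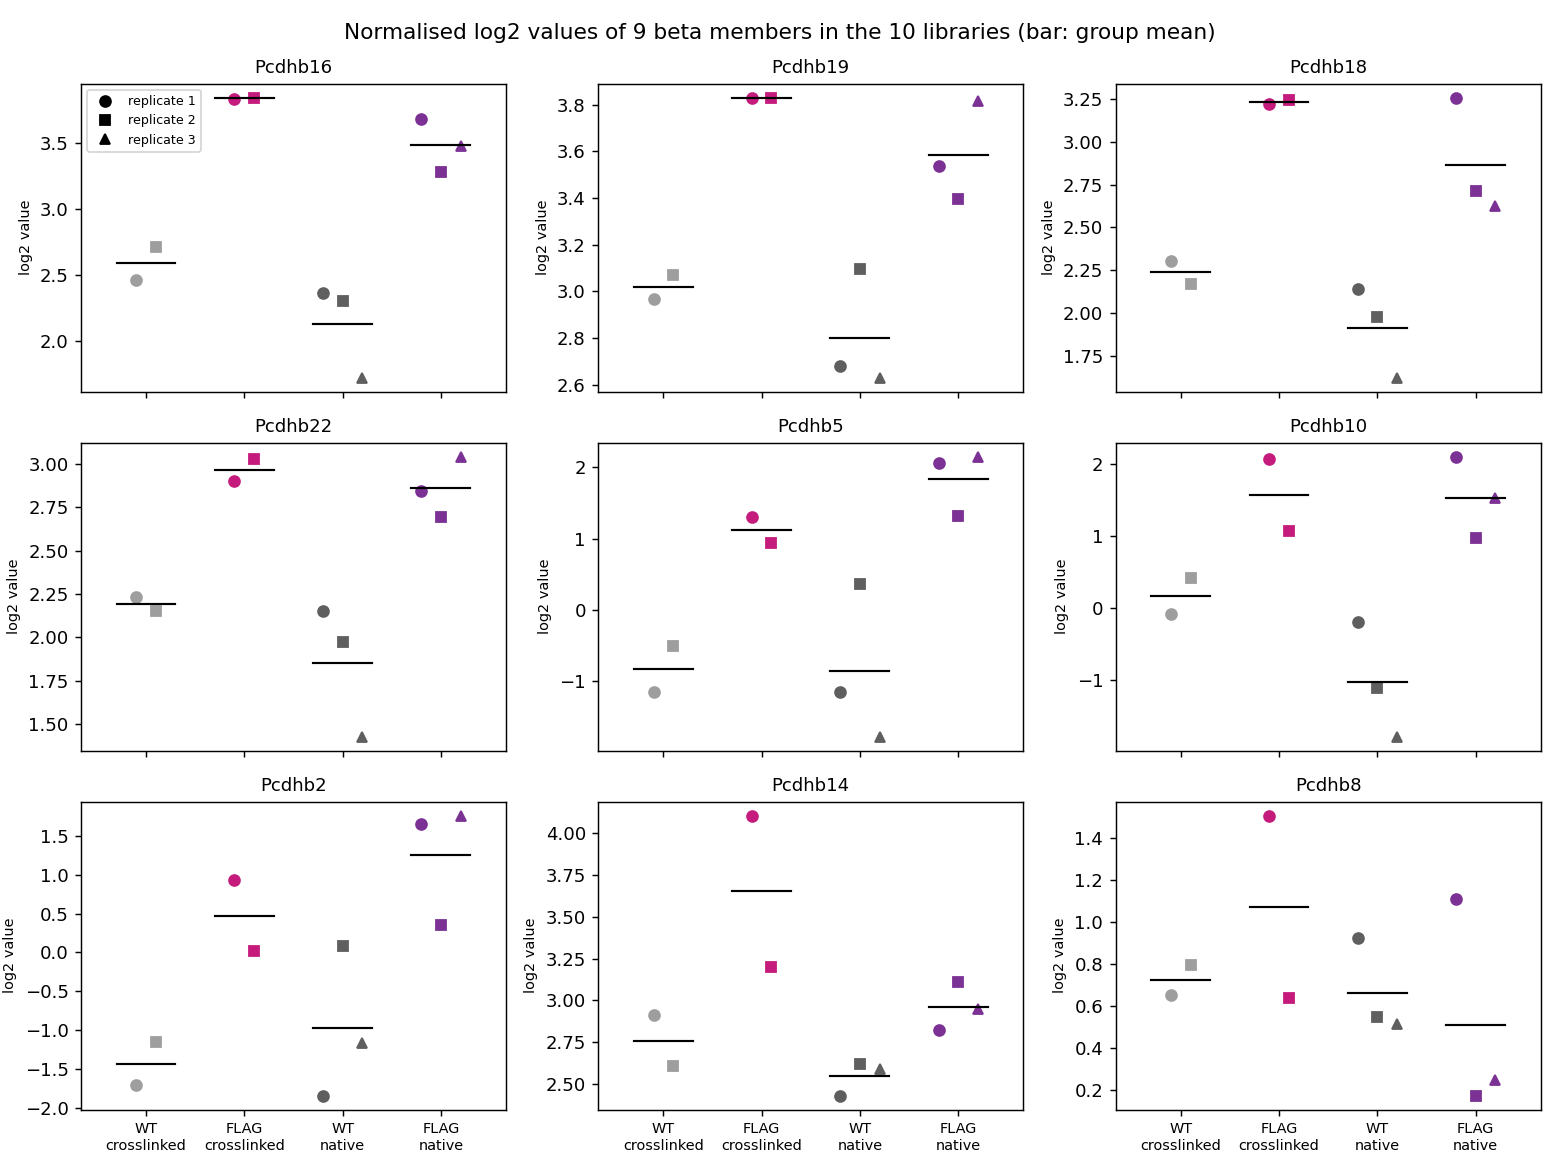
Normalised log2 values (vertical axes, each with its own range) of 9 beta members in the 4 groups (horizontal axes), with a point for each library, its shape for the replicate number and a bar for the group mean. For Pcdhb16, Pcdhb19, Pcdhb18, Pcdhb22, Pcdhb5, Pcdhb10 and Pcdhb2 every FLAG point lies above the WT points of its protocol, while for Pcdhb8 the groups overlap.

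The largest fold changes of the family were in beta genes with low linear values per kb in WT, 0.179 for Pcdhb5, 0.180 for Pcdhb2, 0.248 for Pcdhb9 and 0.274 for Pcdhb10. The WT value is itself part of the fold change, and Pcdhb4, with the lowest WT value, 0.154, had a log2 fold change of 1.33. Pcdhb5 measured 1.31 and 0.94 in crosslinked FLAG against -1.16 and -0.51 in crosslinked WT, and 2.06, 1.32 and 2.15 in native FLAG against -1.16, 0.36 and -1.78 in native WT. The groups did not overlap, although WT native replicate 2 stood above the other WT libraries, and the log2 fold change was 2.40 ± 0.41 (adjusted p = 0.0374, limma). Pcdhb2 measured 0.94 and 0.012 in crosslinked FLAG against -1.71 and -1.16 in crosslinked WT, and 1.65, 0.36 and 1.76 in native FLAG against -1.85, 0.080 and -1.16 in native WT. Crosslinked FLAG replicate 2 was below native WT replicate 2, but within each protocol FLAG was above WT, with a log2 fold change of 2.10 ± 0.44 (adjusted p = 0.0696, limma). Pcdhb10 measured 2.06 and 1.06 in crosslinked FLAG against -0.083 and 0.42 in crosslinked WT, and 2.10, 0.97 and 1.52 in native FLAG against -0.19, -1.11 and -1.78 in native WT. There was no overlap, and the log2 fold change was 2.09 ± 0.40 (adjusted p = 0.0512, limma). Pcdhb9 followed with 1.76 ± 0.44 (adjusted p = 0.0954, limma), with FLAG above WT within each protocol.

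At the other end of the family, Pcdhb8 did not separate the groups. It measured 1.51 and 0.64 in crosslinked FLAG against 0.65 and 0.80 in crosslinked WT, and 1.11, 0.17 and 0.25 in native FLAG against 0.93, 0.55 and 0.52 in native WT. Its log2 fold change of 0.048 ± 0.27 (adjusted p = 0.924, limma) was within the spread of the libraries. Pcdhb20, at 0.54 ± 0.20, and Pcdhb14, at 0.61 ± 0.19, had the next smallest fold changes of the beta genes, and neither passed the test (adjusted p = 0.172 and 0.138 in limma). In Pcdhb20 native FLAG replicates 1 and 2 lay below native WT replicate 1, whereas in Pcdhb14 every FLAG library was above the WT libraries of its protocol. Pcdhb6, in the middle of the beta genes ranked by fold change, had a log2 fold change of 0.92 ± 0.39 (adjusted p = 0.217, limma), with WT native replicate 2 at 1.41 above crosslinked FLAG replicate 2 at 0.89.

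Every FLAG library was above every WT library of its protocol, in both protocols, for 15 of 20 beta members, for 0 of 14 alpha and 0 of 21 gamma members, and for 4.84% of all genes. The 5 beta members that did not meet this were Pcdhb6, Pcdhb8, Pcdhb11, Pcdhb12 and Pcdhb20. With the protocols pooled, all 5 FLAG libraries were above all 5 WT libraries for 10 of 20 beta members and 2.26% of all genes.

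The beta genes differed in how far libraries of a group spread. The 13 genes from Pcdhb2 to Pcdhb15 had a median log2 value, not corrected for length, of 0.71 and a median SD within groups of 0.59, and the 7 genes from Pcdhb16 to Pcdhb22 had a median value of 2.44 and a median SD of 0.25. The median log2 fold changes were 0.92 and 0.91, and the SE was 0.19 to 0.44 in the first stretch and 0.13 to 0.21 in the second. Called genes numbered 1 of 13 and 4 of 7, beside 0.264% of all genes. The 1 called gene of the first stretch, Pcdhb5, had a fold change of 2.40 with an SE of 0.41. Low values vary more between libraries throughout the matrix. Among genes within 0.5 log2 units of their value, a median of 66.8% had a smaller SD than the genes of the first stretch and 25.6% a smaller SD than those of the second. In the first stretch, FLAG crosslinked replicate 1 was the highest library for 8 of the genes, Pcdhb4, Pcdhb6, Pcdhb8 and Pcdhb11 to Pcdhb15. Levels between beta genes were compared per kb of the gene, on the linear scale. In WT they ran from 0.154 (Pcdhb4) to 1.05 (Pcdhb19), with a median of 0.669, and in FLAG from 0.376 (Pcdhb4) to 2.38 (Pcdhb16), with a median of 1.17.

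Within each protocol no member passed the adjusted threshold, and neither did any gene in the higher direction, while 0.107% of genes were called lower in native conditions. With crosslinking the beta fold changes ran from 0.35 to 1.96 with a median of 1.06, 19 of 20 were over 0.58 against 5.24% of all genes, and the smallest adjusted p of the family was 0.315 in limma. The unadjusted p was under 0.05 with a fold change over 0.58 for 12 beta members and for 2.78% of all genes. In native conditions the beta fold changes ran from -0.15 (Pcdhb8) to 2.70 (Pcdhb5) with a median of 0.92, and 15 of 20 were over 0.58 against 16.4% of all genes. There the smallest adjusted p of a member was 0.148 in limma (Pcdhb16), and the unadjusted p was under 0.05 with such a fold change for 12 beta members, 1 gamma member (of 21) and 7.77% of all genes. The difference between the protocols in the FLAG against WT fold change was called for 0 of 55 members and 0 of all genes, and at an unadjusted p under 0.05 with a difference over 0.58 for 0 members, against 0.233% of genes in the native and 0.182% in the crosslinked direction. For the beta members it ran from -0.78 (Pcdhb12, higher with crosslinking) to 1.16 (Pcdhb10, higher in native conditions), with a median of -0.04.

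**Figure D4:**
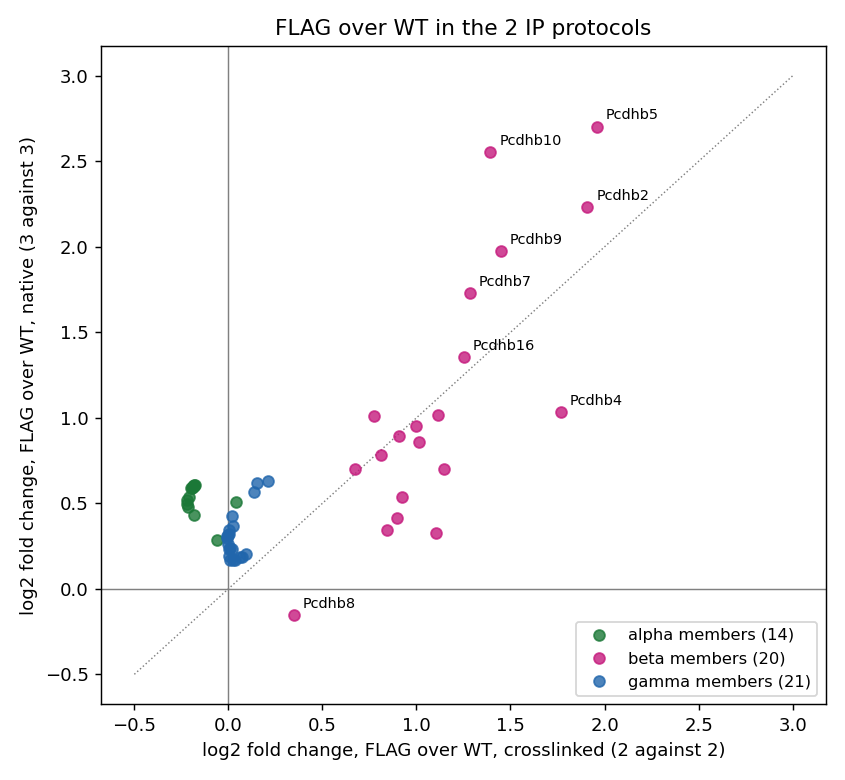
Log2 fold change of FLAG over WT in native conditions (vertical axis, 3 libraries against 3) against that with crosslinking (horizontal axis, 2 against 2), with a point for each of the 55 members and a dotted line where both are equal. The beta points lie above 0 on both axes except Pcdhb8, at 0.35 with crosslinking and -0.15 in native conditions; alpha points gather near -0.19 and 0.56, and gamma points near 0.02 and 0.26.

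The gene calls depended on single libraries. Leaving out FLAG native replicate 2 raised the called beta members over all libraries from 5 to 9, beside 3.25% of all genes, and leaving out WT crosslinked replicate 2 raised them to 8, beside 1.14%. The count fell to 2 (Pcdhb5 and Pcdhb16), beside 0.0566% of genes, without WT native replicate 2 and to 1 (Pcdhb16) without FLAG crosslinked replicate 1, FLAG crosslinked replicate 2, FLAG native replicate 1, FLAG native replicate 3, WT crosslinked replicate 1, WT native replicate 1 or WT native replicate 3, beside 0.0252% to 0.0943% of genes. Deviations of libraries of the same genotype and number from the 2 protocols correlated at 0.15 to 0.39, within the range of other pairs. With genotype and number as a random block only Pcdhb16 was called (adjusted p = 0.0243, limma), as were 0.044% of genes in the higher direction. In native conditions alone, leaving out FLAG native replicate 2 gave 18 called members, 8 alpha, 6 beta and 4 gamma, beside 9.12% of all genes, and the 2 FLAG libraries then left are those with the most genes at the lowest value.

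The beta fold changes were set beside genes of the same structure. The 232 other protein-coding genes with a single exon had a median log2 fold change of 0.69 over all libraries, 0.33 with crosslinking and 0.92 in native conditions, against 0.92, 1.06 and 0.92 for the beta members. Of these 232, 57.3% were over 0.58 over all libraries, 31.9% with crosslinking and 70.7% in native conditions, and 0 were called. In 15.9% of them every FLAG library was above every WT library in both protocols, against 75% of the beta members. By library, the median difference from the WT mean of the protocol was 0.40 and 0.30 in crosslinked FLAG and 1.39, 0.20 and 1.10 in native FLAG replicates 1, 2 and 3 for these genes, and it was 1.48 and 0.82, and 1.04, 0.82 and 1.03, for the beta members. The shift of the single-exon genes was thus largest in the 2 libraries with the most genes at the lowest value, and that of the beta members was of like size in all native FLAG libraries. The part of gene structure and of low-end ties in the beta fold changes was not tested beyond this. When the trend of each library on the exonic share of the gene was removed, 7 beta members and 0.377% of all genes were called higher, and the beta medians were 1.11 over all libraries and 1.16 in native conditions.

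No alpha member was called in any comparison in which all libraries entered with equal weight. Pcdha1, whose span covers the whole alpha cluster, measured 6.42 and 4.01 in crosslinked FLAG, 4.29 and 6.51 in crosslinked WT, 5.67, 4.26 and 5.71 in native FLAG and 4.40, 5.26 and 4.17 in native WT. FLAG and WT overlapped in both protocols, and libraries of a group differed by over 2 log2 units with crosslinking. Pcdhac2, whose span holds only the last of the alternative first exons and the constant exons, was high and low in the same libraries, at 3.74 and 2.10, 1.95 and 3.81, 3.57, 2.46 and 2.96, and 2.47, 2.98 and 2.03 in the same groups. The alpha values were high in FLAG crosslinked replicate 1, WT crosslinked replicate 2, FLAG native replicates 1 and 3 and WT native replicate 2, and low in the other 5 libraries. In each genotype the library that was high with crosslinking was also high under the same number in native conditions, and the low one low. The median SD within groups was 1.06 for the alpha members, against 0.34 for all genes, and for the median alpha member 98.2% of the genes of like level had a smaller SD.

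Over all libraries the alpha log2 fold changes ran only from 0.15 (Pcdhac1) to 0.32 (Pcdhac2) with SE of 0.41 to 0.55, and the smallest adjusted p was 0.645 in limma. Pcdha1, Pcdha2 and Pcdha3 were at 0.29, Pcdha5 at 0.28, the Pcdha11 row ENSMUSG00000102206 at 0.20 and Pcdha12 at 0.19. With crosslinking the alpha median was -0.19 and in native conditions 0.56, and 13 of 14 members were below 0 with crosslinking, as were 53.7% of all genes. Leaving out a crosslinked library moved the crosslinked median to between -1.36 and 0.97, so that it had no settled sign. The SE of the beta members in the same fit ran from 0.13 to 0.44. How large an alpha difference could have been called was not tested.

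The gamma members had the smallest median fold change of the clusters over all libraries, 0.16. With crosslinking the gamma median was 0.02, against -0.19 for alpha. Pcdhga1, whose span covers the whole gamma cluster, measured 8.41 and 8.36 in crosslinked FLAG against 8.33 and 8.25 in crosslinked WT, and 8.84, 8.30 and 8.52 in native FLAG against 8.22, 8.53 and 8.31 in native WT. Only the crosslinked groups were separate, by less than the spread within the native groups, and the log2 fold change was 0.16 ± 0.11 (adjusted p = 0.408, limma). The members from Pcdhga1 to Pcdhga12 had fold changes between 0.11 and 0.26, the smallest at Pcdhgb2 and Pcdhga4, both 0.11, and Pcdhgb1, at 0.12. The C-type genes at the end, Pcdhgc3, Pcdhgc4 and Pcdhgc5, were at 0.43, 0.39 and 0.46, above all other gamma members. Pcdhgc5 measured 5.72 and 5.62 in crosslinked FLAG against 5.34 and 5.59 in crosslinked WT, and 7.13, 6.12 and 6.72 in native FLAG against 5.94, 6.24 and 5.90 in native WT. Its fold change of 0.46 ± 0.18 was not called (adjusted p = 0.197, limma), and native FLAG replicate 2 lay below native WT replicate 2.

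Because the gamma spans are nested, the fold change of a stretch was read from the difference between the linear values of the members that start at its ends. This is approximate, since the matrix had been normalised between libraries. The last stretch, from Pcdhgc5 to the end of the cluster, which holds the constant exons, measured 52.9 and 49.3 in crosslinked FLAG and 40.5 and 48.2 in crosslinked WT. In native conditions it measured 140, 69.8 and 105 in FLAG and 61.5, 75.4 and 59.9 in WT. The ratio of the group means was 0.20 and 0.68 on the log2 scale. The ratio rested on native FLAG replicates 1 and 3, the libraries with the most ties at the lowest value, and native FLAG replicate 2 was within the range of WT. The stretch from Pcdhgc3 to Pcdhgc5 gave 0.09 with crosslinking and 0.68 in native conditions, with native FLAG replicate 1 at 142 and the other 9 libraries between 44.6 and 79.7. The stretches from Pcdhga6 to Pcdhga12 and from Pcdhga12 to Pcdhgc3 gave -0.01 and -0.22 with crosslinking and -0.20 and -0.30 in native conditions. The first stretch, from Pcdhga1 to Pcdhga6, measured 71.7 and 66.6 in crosslinked FLAG against 53.4 and 44.3 in crosslinked WT (0.50), and the ratio was 0.01 in native conditions. Its single intervals differed. The interval from Pcdhga1 to Pcdhga2 measured 7.02 and 9.34 in crosslinked FLAG against 4.27 and 2.22 in crosslinked WT (1.33), and 8.42, 7.75 and 6.15 in native FLAG against 1.57, 3.40 and 2.99 in native WT (1.49). The interval from Pcdhga3 to Pcdhgb1 measured 9.27 and 12.6 against 5.86 and 3.25 with crosslinking (1.26), and 12.2, 11.3 and 10.9 against 5.90, 5.38 and 7.15 in native conditions (0.90). These were the 2 of 21 gamma intervals in which every FLAG library was above every WT library in both protocols. None of the 14 alpha intervals was of that kind, and 4.84% of all genes were. By contrast, the ratio was 0.26 with crosslinking and -0.74 in native conditions from Pcdhgb2 to Pcdhga5, and 0.02 and -0.55 from Pcdhga5 to Pcdhga6. Such an interval is a small difference between large values and was singled out after the values were seen, with no test. The stretches of the gamma cluster thus differed in sign. Per kb, WT values were highest from Pcdhgc3 to Pcdhgc5, at 4.13, and from Pcdhgc5 to the end, at 2.55, against 1.16 to 1.79 in the other gamma stretches and 0.104 to 0.186 in the alpha stretches.

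**Figure D5:**
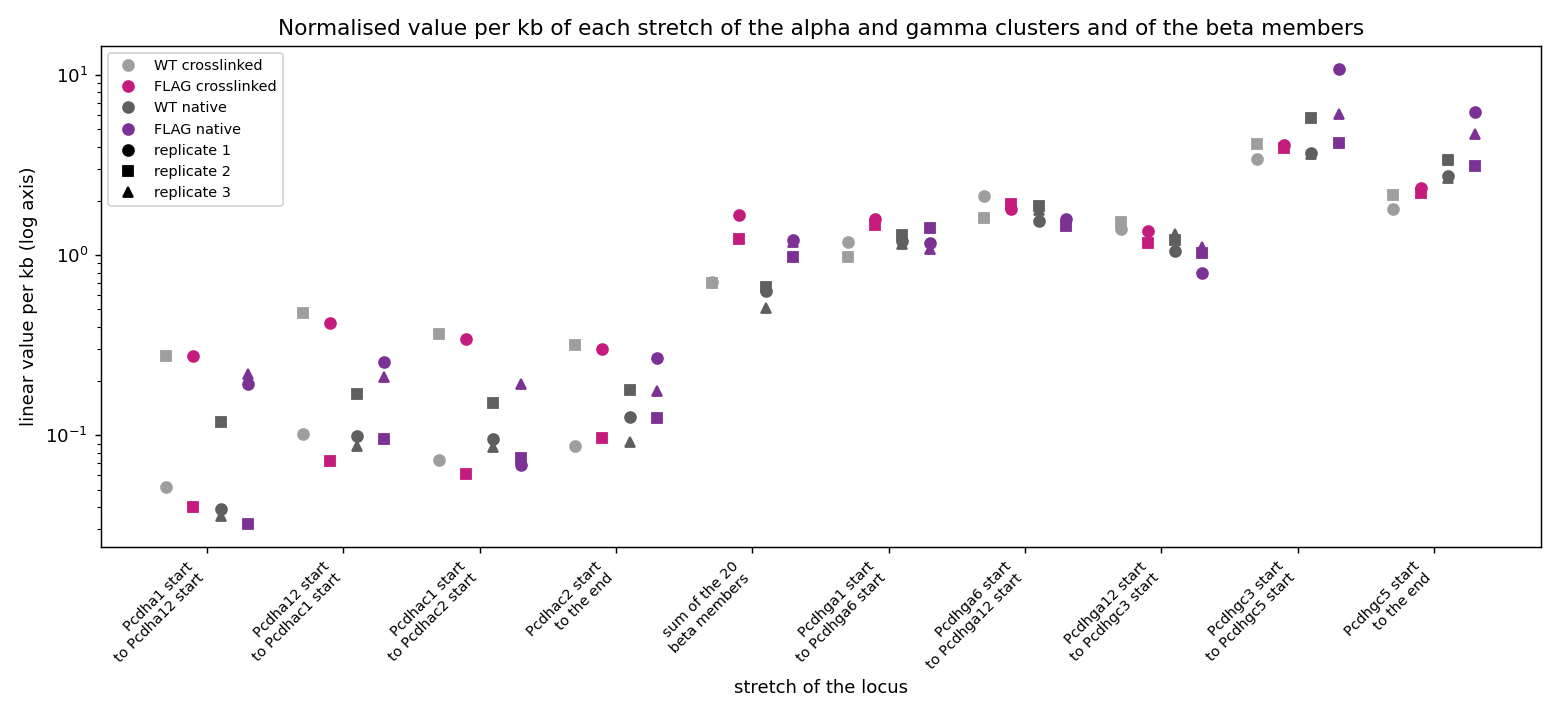
Linear value per kb (vertical axis, log scale) of 4 stretches of the alpha cluster, of the 20 beta members together and of 5 stretches of the gamma cluster (horizontal axis), with a point for each library, coloured by group and shaped by replicate number. The FLAG and WT points of the beta members are apart in both protocols, those of the alpha stretches are mixed, and in the last gamma stretches FLAG native replicates 1 and 3 are above the rest.

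The protocol had no called effect on the members. In WT libraries, 0 of 55 members were called higher or lower with crosslinking than in native conditions, while 0.044% of all genes were called higher and 0.289% lower. In FLAG libraries the count was again 0 of 55, beside 0.044% and 0.396% of all genes. All 21 gamma members had lower values with crosslinking in both genotypes, as had 46.9% of all genes in WT and 40.9% in FLAG, with median log2 fold changes of -0.08 in WT and -0.33 in FLAG, and the smallest adjusted p among them was 0.136 in limma. For the beta members the medians were 0.20 in WT and 0.36 in FLAG. Leaving out FLAG native replicate 2 gave 9 gamma members lower with crosslinking in FLAG, beside 9.08% of all genes.

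MEX-3 proteins bind a short degenerate motif in 3′ UTRs, the MEX-3 recognition element (MRE), and the annotated 3′ UTRs of the members were searched for it on the sense strand, in the form of letters that the study gives in its methods. The beta genes, each with its own 3′ UTR of 248 to 6117 nt, held a match in 18 of 20 cases (90%), at 3.75 per kb. Of the coding genes of the matrix with an annotated 3′ UTR, 77.2% held one, at 2.80 per kb, and of those with a 3′ UTR in the same range of lengths 83.5% did. Pcdhb18, Pcdhb19 and Pcdhb22 held 17, 19 and 11 matches, Pcdhb16 6 and Pcdhb5 3. Pcdhb14 held the most, 23, in the longest 3′ UTR, and Pcdhb10 and Pcdhb15, with 3′ UTRs of 248 and 263 nt, held none. Pcdhb10 was among the largest fold changes and Pcdhb14 among the smallest of the beta genes. The 3′ UTR shared by the alpha members, of 2401 nt, held 9 matches, and that shared by the gamma members, of 1744 nt, held 5. In the other form of the motif that the study writes, the counts were 18 of 20 beta genes, beside 76.8% of the coding genes and 83.1% of those in the same range of lengths, and 8 matches in the alpha and 0 in the gamma 3′ UTR. A match of letters is not a binding site.

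Genes linked to the clustered protocadherins by function or place were not called. Of the 12 non-clustered protocadherins, adhesion proteins encoded outside the clusters, 9 were in the matrix and 0 were called, with a median log2 fold change of 0.59. The largest were Pcdh15, the tip-link protein of hair cells, at 1.21 ± 0.25 (adjusted p = 0.0690, limma), and Pcdh17, at 1.03 ± 0.50. Of 18 classical and other large cadherins, 16 were in the matrix, 0 were called and the median was -0.35, with Celsr1, a planar polarity cadherin, at -1.64 ± 0.31 (adjusted p = 0.0512, limma) and Fat4, an atypical cadherin that binds Dchs1, at -0.90 ± 0.40. All 17 regulators of promoter choice, among them Ctcf, the cohesin subunits and the DNA methyltransferases, were in the matrix with 0 called and a median of 0.02, and the largest were the cohesin subunit Rad21, at 0.35, and the methyltransferase Dnmt3a, at 0.28. Of 17 intracellular partners and proteases of protocadherins, such as the WAVE complex, Adam10 and the presenilins, 15 were in the matrix with 0 called and a median of 0.08, and the largest was Marcks, an actin-regulating protein kinase C substrate, at 1.65 ± 0.40 (adjusted p = 0.0897, limma), followed by Rac1, a small GTPase upstream of WAVE, at 0.50. Of 21 genes beside the clusters on the chromosome, 15 were in the matrix with 0 called and a median of 0.16, the largest being Zmat2 at 0.45 and Slc35a4 at 0.41. Taf7, a TFIID subunit encoded between the beta and gamma clusters, was at -0.20.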

How the data were processed

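RNA immunoprecipitated with an anti-FLAG antibody was measured by RIP-seq in 10 libraries of 4 groups, which the labels give. According to the methods and to the submitters' processing notes, the authors used Cutadapt and Trimmomatic for trimming, HISAT2 for mapping to GRCm38 and featureCounts for counts per gene. The authors deposited a matrix of log2 values for 15899 genes, labelled as filtered and normalised. The methods name a count-based package for normalization, the notes list limma, and the deposited log2 values look quantile-normalised. The counting option for overlapping genes and the strand setting are not given in the sources used here, so antisense genes cannot be told apart. Depth and counting error are unknown.

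The deposited log2 values entered limma 3.58.1 under R 4.3.3 as they were, without a pseudocount, through lmFit and then eBayes, where the trend option was set. FLAG was compared with WT in each protocol and in all libraries with a term for protocol, and a fit of 4 groups gave the comparisons of protocols. P-values were adjusted by Benjamini-Hochberg over all genes. The steps were tested on simulated data. The methods call the replicate cultures biological and treat each IP as independent. Whether libraries of 1 number in both protocols share a culture is not given in the sources used here. Gene structure was taken from the GENCODE M21 annotation of GRCm38, which held 15864 of the genes, and the place of Pcdha10 from RefSeq (GRCm38.p6). Tables and figures were made with Python 3.11.15, numpy 2.4.6, pandas 2.3.3 and matplotlib 3.10.9.

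The members and the gene lists were chosen with earlier results of these data known. Named members are, per family, the 4 largest and 3 smallest fold changes over all libraries, the middle member, called members, C-type genes and members in the study's list of bound genes; from other lists, the called genes and the 2 largest absolute fold changes, of which 1 gene is not reported here. Taf7, Pcdhb21 and other members named as exceptions were chosen after their values were seen. Alternatives were pseudocounts of 1 and 8, minimum mean linear values of 1 and 10, renewed quantile normalization, centring on coding genes, array weights, the replicate number as a block, a fit of 4 groups, eBayes without a trend or robust, removal of trends on GC content and length or on exonic share, and each library left out in turn. A random block of genotype and number and a crossed pairing were chosen later, with the data seen. No sequence of these loci is shown.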

Additional observations from a re-analysis of the deposited data

How the results depend on the processing

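The beta median log2 fold change stayed above 0 under every alternative run, between 0.27 and 1.11 over all libraries, 0.30 and 1.48 with crosslinking and 0.25 and 1.16 in native conditions. Pcdhb16 was called in all 23 alternatives in which it was tested (adjusted p between 1.68e-05 and 0.0418 in limma); a minimum mean of 10 removed it and left Pcdhb19 as the 1 call. The count of called members over all libraries, 5, became 1 with a pseudocount of 8, with a minimum mean of 10, with a fit of 4 groups, without a trend and with genotype and number as a random block, 13 with array weights (beside 6.95% of all genes), and 1 to 9 with a library left out. A pseudocount shrinks the fold change of low values by construction: the beta medians were 0.27, 0.30 and 0.25 (all, crosslinked, native) with a pseudocount of 8 and the native one 0.67 with a pseudocount of 1. The native beta median was 0.78 with a minimum mean of 10, 1.16 with the trend on exonic share removed and 0.77 to 1.03 with a library left out. With that trend removed the crosslinked gamma median was 0.075. In native conditions array weights gave 24 called members, beside 10.4% of all genes called higher and 12.1% lower, and leaving out a library 0 to 18. In FLAG libraries the members called lower with crosslinking numbered 3 with array weights, where 5.69% of all genes were called lower, and 0 to 9 with a library left out. A crosslinked group with a library left out holds 1 library, whose spread is assumed to be that of the other group. The alpha median over all libraries ranged from -0.13 to 0.68 and so had no settled sign, and the gamma median from 0.02 to 0.37. Over all genes, the 42 called higher and 37 lower became 10 and 31 with a pseudocount of 8, 13 and 30 with a minimum mean of 10, 13 and 12 without a trend, 14 and 20 with the replicate block, 7 and 8 with the random block, 1105 and 964 with array weights and 516 and 186 without FLAG native replicate 2. Depth is unknown, so how far it limits the low beta genes could not be measured. The cause of these shifts was not tested.

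Replicate numbers did not pair FLAG with WT: the deviations of same-numbered libraries correlated at -0.27 with crosslinking and at -0.15, -0.43 and -0.17 in native conditions. With the replicate number as a block, 2 members were called over all libraries (Pcdhb16 and Pcdhb18), and 0 within each protocol. With the crossed pairing, chosen after seeing the data, 0 members and 0 genes were called in the crosslinked libraries. Libraries of 1 genotype and number from the 2 protocols correlated at 0.18, 0.15, 0.30 and 0.39, and the consensus correlation of the random block was 0.327. All other pairs of libraries from different groups ranged from -0.43 to 0.40, so these values do not single out the same-numbered pairs. In a group of 2 libraries the deviations are equal and opposite by construction.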

Other observations

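The matrix also holds Gm42416, an annotated gene whose span, chr18:36952741-37840200, runs from the alpha cluster over the beta cluster to nearly the end of the gamma cluster. Its linear value was 757 and 573 in crosslinked FLAG against 488 and 526 in crosslinked WT, and 708, 422 and 564 in native FLAG against 374, 478 and 391 in native WT, so that the groups were apart with crosslinking and overlapped in native conditions. The values of Pcdha4 and Pcdhga1, which cover the alpha and gamma part of that span and reach past its ends, were subtracted. The rest, with the beta cluster in it, was 336 and 230 in crosslinked FLAG against 148 and 133 in crosslinked WT. In native conditions it was 197, 87.5 and 145 in FLAG against 54.2, 70.2 and 56.3 in WT. The FLAG libraries were above the WT libraries in both protocols. The beta members lie within this remainder, so this is not an observation separate from their summed values. This remainder was chosen after the values were seen and has no test. It is approximate, because the matrix was normalised between libraries and the subtracted spans reach past that of Gm42416. In WT native replicate 1 it was below the beta sum, 54.2 against 54.9.

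Pcdhb12, 1 of the 5 beta members whose groups overlapped, had 62.9% of the read-length windows of its transcript also in the transcripts of another gene, against 0% to 8.96% for the other beta members. Gm37446, which overlaps it, lies on the other strand.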
